A study of Mus musculus with 14 samples.

Results

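The renin-angiotensin genes and angiotensin-cleaving peptidases described here are the 9 genes Ren1, Agt, Ace, Agtr1a, Mme, Enpep, Anpep, Atp6ap2 and Mas1, chosen by gene symbol from a table of 49584 genes. They were measured by RNA sequencing of mouse kidney in 4 groups. WT untreated (n = 3) and cKO untreated (n = 3) mice received no drug, and WT cisplatin (n = 4) and cKO cisplatin (n = 4) mice were injected into the abdomen with 15 mg/kg of cisplatin, with kidneys taken 4 days later. In the labels cKO is a conditional knockout of Ripk4, a receptor-interacting serine/threonine kinase, and WT carries no named allele. The labels used here name no Cre driver, targeted cell type, strain, sex or age, and do not say that each library is a separate animal, so p-values measure the spread between these libraries. Cisplatin, a platinum compound used against tumours, forms DNA crosslinks and damages proximal tubule cells.

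Renin, an aspartyl protease secreted by juxtaglomerular cells of the afferent arteriole, cleaves angiotensinogen, the precursor made mainly in liver and also in the proximal tubule, to angiotensin I. Angiotensin-converting enzyme, encoded by Ace, removes a dipeptide to give angiotensin II, which acts on the type 1 receptor encoded in rodent kidney mostly by Agtr1a to constrict vessels and raise sodium reabsorption. On the brush border of the proximal tubule, aminopeptidase A (Enpep) trims angiotensin II to angiotensin III, aminopeptidase N (Anpep) trims that to angiotensin IV, and neprilysin (Mme) makes angiotensin-(1-7), a ligand of the receptor encoded by Mas1.

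The sequences below show where the cascade starts. Renin cuts within the N-terminus of angiotensinogen, and the 10 codons of angiotensin I lie at bases 134 to 163 of the transcript Agt-201 (GENCODE M21); capitals mark the 8 codons of angiotensin II, which Ace frees by removing the last codons' dipeptide.
Angiotensin I code: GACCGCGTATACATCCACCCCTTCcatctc

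The promoters of Ren1, of Agt, which rose in WT kidneys after cisplatin, and of Ace and Enpep, which had the lowest log2(FPKM + 1) fold changes of the 9 genes there, are shown as RefSeq windows (GRCm38.p6) of 250 bases before to 50 after the annotated start, on the gene's strand. They were taken for 8 of the 9 genes, and Agtr1a is named only. Capitals mark 3 motifs on either strand. TATAAA is the core of the TATA box and appears as TTTATA when read on the other strand. GGGCGG is a GC box. CCAAT is the core of the motif of that name, seen as ATTGG when read on the other strand.
Ren1, chr1:133350424-133350723, plus strand: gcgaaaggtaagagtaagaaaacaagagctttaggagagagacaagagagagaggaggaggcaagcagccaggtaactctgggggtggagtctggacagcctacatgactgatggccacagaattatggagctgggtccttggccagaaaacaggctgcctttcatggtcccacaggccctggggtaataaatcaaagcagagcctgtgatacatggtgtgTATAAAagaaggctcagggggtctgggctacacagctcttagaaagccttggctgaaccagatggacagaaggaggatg
Agt, chr8:124569657-124569956, minus strand: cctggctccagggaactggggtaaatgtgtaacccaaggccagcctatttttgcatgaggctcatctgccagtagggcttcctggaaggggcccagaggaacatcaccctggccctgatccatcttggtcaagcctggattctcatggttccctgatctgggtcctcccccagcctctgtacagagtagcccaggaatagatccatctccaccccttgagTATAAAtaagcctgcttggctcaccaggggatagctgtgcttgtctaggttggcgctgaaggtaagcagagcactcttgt
Ace, chr11:105967698-105967997, plus strand: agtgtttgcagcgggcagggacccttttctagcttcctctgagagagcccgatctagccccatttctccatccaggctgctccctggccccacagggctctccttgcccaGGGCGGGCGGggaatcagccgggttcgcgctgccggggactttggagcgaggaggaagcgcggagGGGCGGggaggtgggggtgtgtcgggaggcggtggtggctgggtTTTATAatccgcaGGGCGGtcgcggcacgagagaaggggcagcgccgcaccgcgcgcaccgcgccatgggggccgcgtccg
Enpep, chr3:129332700-129332999, minus strand: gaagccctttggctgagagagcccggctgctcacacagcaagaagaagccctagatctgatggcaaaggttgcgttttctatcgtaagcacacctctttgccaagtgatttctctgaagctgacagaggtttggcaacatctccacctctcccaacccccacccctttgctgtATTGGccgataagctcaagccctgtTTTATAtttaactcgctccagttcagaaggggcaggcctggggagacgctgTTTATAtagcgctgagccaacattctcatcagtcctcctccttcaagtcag

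A TATAAA began 29 bases before the start in Ren1 and 30 bases before it in Agt. It was read in reverse at position -31 in Ace, and at positions -52 and -1 in Enpep. Of 32851 mouse promoter windows of the same length, 13.6% held TATAAA on either strand, 35.7% held GGGCGG and 37.4% held CCAAT. The Ace window shown held 4 copies of GGGCGG on its own strand, the first pair overlapping, and so did that of Anpep, with 4. Ace has a second window, chr11:105974939-105975238, not shown. Its only match was 1 CCAAT read in reverse. Each match is a description of letters, not of a factor bound there.

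In the files' mm10 coordinates the renin gene Ren1 (ENSMUSG00000070645) spans chr1:133350510-133360325 on the plus strand. The precursor gene Agt (ENSMUSG00000031980) spans chr8:124556534-124569706 on the minus strand, and Ace (ENSMUSG00000020681) chr11:105967945-105989964 on the plus strand. The receptor genes Agtr1a (ENSMUSG00000049115) and Mas1 (ENSMUSG00000068037) lie at chr13:30336441-30382867 (plus) and chr17:12841079-12868143 (minus). The peptidase genes Mme (ENSMUSG00000027820) and Enpep (ENSMUSG00000028024) are both on chromosome 3, at chr3:63241537-63386030 (plus) and chr3:129269175-129332720 (minus). Anpep (ENSMUSG00000039062) spans chr7:79821803-79861059 on the minus strand, and Atp6ap2 (ENSMUSG00000031007), encoding the prorenin receptor and an accessory subunit of the vacuolar proton pump, chrX:12587801-12617049 on the plus strand. All 9 are protein-coding and have the same coordinates in GENCODE M21.

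Libraries held 36.7 to 77.0 M assigned reads, and 16 (Mas1) to 26659 reads per library lay behind the 9 genes. The value given is FPKM (reads per kilobase of gene and per 1 M assigned reads) as deposited by the authors. Ripk4 was 7.18 to 8.51 FPKM in WT untreated and 3.68 to 4.61 in cKO untreated libraries, 7.61 to 13.3 in WT cisplatin and 3.61 to 9.09 in cKO cisplatin. The difference, cKO minus WT on the log2 scale ± SE (limma), was -0.81 ± 0.24 without drug (unadjusted p = 0.00481, adjusted p = 1.00) and -0.72 ± 0.21 after cisplatin (adjusted p = 0.0216). The library labelled cKO cisplatin 3, at 9.09, lay inside the WT range. Libraries are numbered within their group in the order of their records. Library 1 of WT cisplatin and library 1 of cKO cisplatin stood apart in podocyte and endothelial markers. Their podocyte genes summed to 37.4 and 56.7 FPKM, against 124 to 187 in the other 12. Their endothelial genes summed to 124 and 149, against 212 to 283. Their vascular smooth muscle and pericyte genes (54.6 and 49.2) lay inside the range of the other 12, 49.1 to 122. Their mesangial genes (48.8 and 44.0) lay inside 39.3 to 119 in sum. The mean log2(FPKM + 1) of mesangial genes was lowest in these libraries, 2.33 and 2.52 against 2.74 to 3.49. Library 4 of cKO cisplatin had tubular injury genes (Havcr1, Lcn2 and 6 others) at 588 FPKM in sum, inside the 450 to 655 of cKO untreated, while the other 3 cKO cisplatin libraries held 1956 to 3876 and the WT cisplatin libraries 10509 to 17827.

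**Figure D1:**
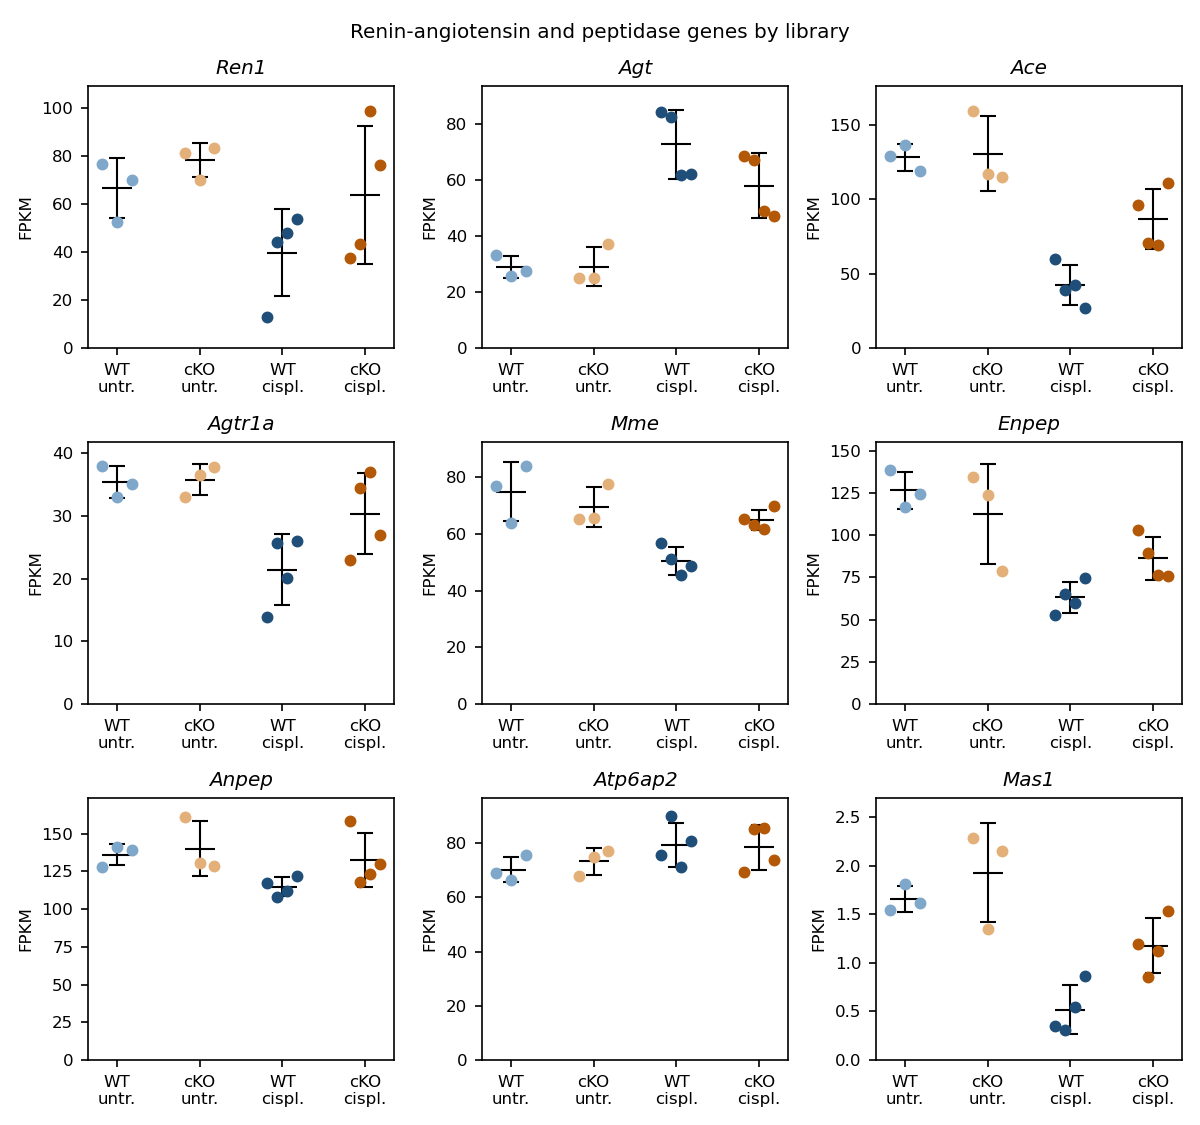
Level of each of the 9 genes (FPKM, y axis from 0) in the 4 groups; points are libraries in replicate order, the long bar is the group mean and the whiskers are ± 1 SD (n = 3 untreated, n = 4 cisplatin). All Agt points after cisplatin lie above the untreated ones in both genotypes, and all WT cisplatin Ace points (26.9 to 59.8) lie below those of the other groups.

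Without drug, WT kidney held most Anpep (136 ± 7.18 FPKM, SD, n = 3), Ace (128 ± 8.89) and Enpep (126 ± 11.1), whose ranges overlapped. Mme (74.9 ± 10.2), Atp6ap2 (70.3 ± 4.71) and Ren1 (66.4 ± 12.5) followed as a second overlapping set, then Agtr1a (35.4 ± 2.49) and Agt (28.9 ± 3.96), and Mas1 was lowest at 1.66 ± 0.137 FPKM. This order rests on the gene length in the authors' FPKM, which for 7 of the 9 genes equals the mean length of the gene's M21 transcripts within 1 base. Per kilobase of the longest transcript, a scale chosen after seeing the data, Ace led at 76.1 ± 5.28, followed by Enpep (64.3), Anpep (57.7), Atp6ap2 (45.6), Ren1 (37.7), Agt (28.9), Mme (25.0), Agtr1a (21.7) and Mas1 (0.882). Mme stood lower on that scale, its longest transcript being 3.0 times the length used, so levels of 1 gene against another carry this uncertainty, while comparisons of 1 gene between groups do not.

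**Figure D2:**
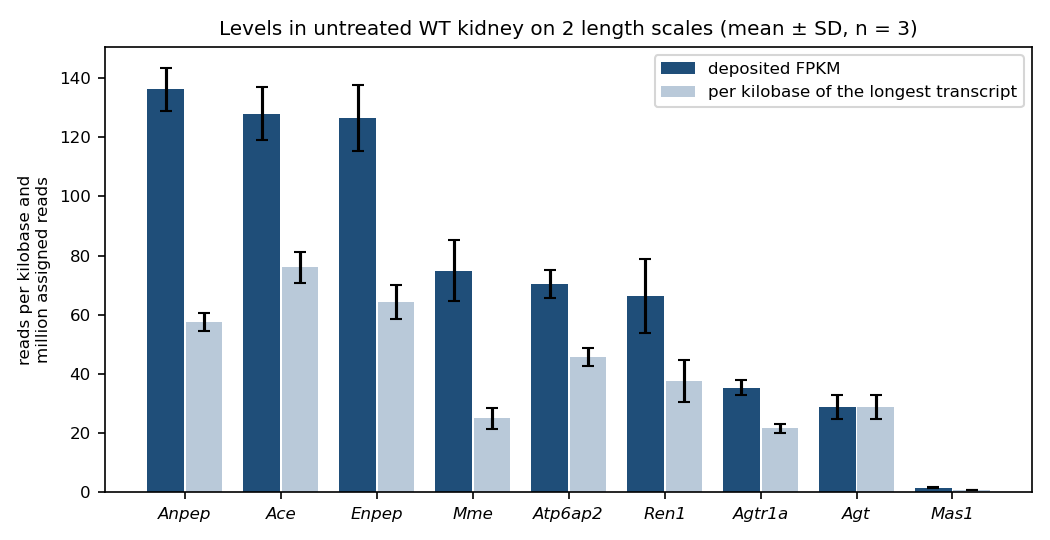
Mean level ± SD (n = 3) of the 9 genes in untreated WT kidney, as deposited FPKM (dark) and per kilobase of the longest M21 transcript (light), y axis from 0 in reads per kilobase and per 1 M assigned reads. Anpep leads on the deposited scale and Ace on the other, and Mas1 is lowest on both.

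In WT kidneys 4 days after cisplatin the angiotensinogen gene rose and 5 of the 8 other genes fell: Ace, Enpep, Mme, Agtr1a and Mas1. Renin, Anpep and Atp6ap2 did not pass the test. WT groups did not overlap for the 6 called genes or for Anpep. For the called genes this adds no separate support, since the same values gave the call. The counts stand against a background in which 34.4% of the 15193 genes tested were called in WT, 22.3% as higher and 12.1% as lower, and 38.9% had groups that did not overlap. The median log2 fold change of the 9 genes was -0.74, against 0.10 over all genes. All log2 fold changes are differences of log2(FPKM + 1) ± SE from limma, with Benjamini-Hochberg adjustment over those genes, and understate changes of genes near 1 FPKM. After a rescaling that sets the median of all genes close to 0, the share of called genes that rose in WT was 51.8% (median of ratios) or 50.5% (quantile normalization) instead of 64.9%, and the 6 genes kept their direction and call under both.

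Agt, the precursor of all angiotensin peptides, was 33.3, 25.7 and 27.6 FPKM in WT untreated libraries and 84.4, 82.7, 61.9 and 62.3 after cisplatin. In cKO it was 25.0, 25.0 and 37.3 without drug and 68.8, 67.3, 49.0 and 47.2 after it. Every cisplatin library of either genotype exceeded every untreated one, 47.2 against at most 37.3. In WT the group mean went from 28.9 ± 3.96 to 72.8 ± 12.4, a ratio of 2.52, and the log2 fold change was 1.30 ± 0.18 (adjusted p = 1.88e-04). In cKO the means were 29.1 ± 7.08 and 58.1 ± 11.6, a ratio of 1.99, with a log2 fold change of 0.98 ± 0.18 whose adjusted p was 0.0830. That difference ranked 19th of 15193 by p in cKO, where 0.0197% of genes (0 higher, 3 lower) were called in all and 12.2% had groups that did not overlap. Left out singly, cKO untreated library 3 and cKO cisplatin library 4 each brought it past the threshold (adjusted p = 0.0370 and 0.0160). It was called in 3 of 22 alternatives in all, and without cKO untreated library 1 its limma adjusted p was 0.413. After cisplatin, Agt in cKO against WT gave -0.33 ± 0.17 (adjusted p = 0.174), and the difference of the responses was -0.32 ± 0.26 (adjusted p = 0.524, 95% interval -0.89 to 0.24).

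Markers of the tissues known for high Agt were read beside it. The liver list (highest member Ttr) summed to 84.5 to 165 FPKM in WT untreated and 29.9 to 75.5 in WT cisplatin libraries. Of its 5 members tested 0 were higher and 2 lower (Ttr and Alb), where 22.3% of all genes rose and 12.1% fell. Within WT cisplatin, libraries 1 and 2 had the higher sums (68.5 and 75.5) and the higher Agt (84.4 and 82.7), and libraries 3 and 4 had sums of 29.9 and 48.2 with Agt at 61.9 and 62.3. The part of liver genes in the Agt values was not tested. In cKO the liver list summed to 109 to 118 without drug and 75.9 to 126 after it. Within cKO cisplatin the order ran the other way. Libraries 1 and 2 had the lower sums (82.8 and 75.9) and the higher Agt (68.8 and 67.3). Libraries 3 and 4 had sums of 113 and 126 with Agt at 49.0 and 47.2. Adipose genes summed to 6.46 to 69.2 in WT cisplatin against 4.32 to 7.70 in WT untreated libraries, and the highest value was library 2 alone. Agt in the other 3 was 61.9 to 84.4. In cKO adipose genes summed to 1.62 to 16.9 without drug and 1.97 to 26.9 after it, highest in libraries 2 and 3 (24.4 and 26.9). The sample titles of WT cisplatin library 2 and cKO cisplatin libraries 2 and 3 carry higher numbers than all others. The labels do not say why. In cKO cisplatin library 4, whose injury genes were at the untreated level, Agt was 47.2 FPKM.

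Ren1, renin itself, was 76.7, 52.5 and 69.9 FPKM in WT untreated libraries and 13.1, 44.1, 47.9 and 53.7 in WT cisplatin. In cKO it was 81.2, 70.0 and 83.1 without drug and 37.5, 43.2, 98.5 and 76.0 after it. The groups overlapped in both genotypes, and the lowest value of each cisplatin group was its library 1, the one low in podocyte and endothelial genes. The WT log2 fold change was -0.88 ± 0.42 (adjusted p = 0.121) and the cKO one -0.39 ± 0.42 (adjusted p = 0.792). With library 1 of WT cisplatin left out, the WT value was -0.43 (adjusted p = 0.254), and with both first libraries left out the cKO value was -0.18. After cisplatin cKO minus WT was 0.74 ± 0.39 (adjusted p = 0.179), or 0.28 without WT cisplatin library 1. Of 6 juxtaglomerular markers 0 were called in either genotype, where 34.4% of all genes were called in WT and 0.0197% in cKO. In WT 2 of the 6 markers had log2 fold changes above 0 (median -0.16). They summed to 45.3 to 52.9 FPKM in WT untreated, 30.2 to 48.7 in WT cisplatin, 45.1 to 58.1 in cKO untreated and 39.7 to 55.8 in cKO cisplatin libraries, with WT cisplatin library 1 the lowest. These sums rest mostly on 2 of the 6, Adcy6 (mean 21.5 FPKM over all libraries) and Rgs5 (18.3). A second, nearly identical renin gene, Ren2, is carried by some mouse strains, and since the labels give no strain, reads of Ren1 may include it.

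Ace, which makes angiotensin II, was 129, 136 and 119 FPKM in WT untreated libraries and 59.8, 39.3, 42.5 and 26.9 in WT cisplatin. In cKO it was 159, 117 and 115 without drug and 96.0, 70.2, 69.5 and 111 after it. The cisplatin libraries lay below the untreated ones in both genotypes, in cKO narrowly (111 against 115), and every cKO cisplatin library lay above every WT cisplatin one. WT Ace fell by 1.63 ± 0.23 on the log2 scale (adjusted p = 1.73e-04), from 128 ± 8.89 to 42.1 ± 13.6 FPKM. In cKO the means were 130 ± 25.1 and 86.6 ± 20.3, with a log2 fold change of -0.60 ± 0.23 (adjusted p = 0.316). After cisplatin cKO kidneys held more Ace than WT ones, by 1.05 ± 0.21 on the log2 scale (adjusted p = 0.00348), a call present in each of 22 alternative settings. The difference of the 2 responses was 1.04 ± 0.32 with an adjusted p of 0.0893, and 1.22 with an adjusted p of 0.0151 when WT cisplatin library 1 was left out. Both first libraries together left out gave 1.16 and 0.0243. Over all genes the calls of such a difference rose from 214 higher and 403 lower to 702 and 1540 without WT cisplatin library 1. Without both first libraries they were 709 and 1508. The Ace difference was called in 3 of 22 alternatives, and its limma adjusted p was 0.192 without cKO untreated library 3.

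The level of Agt relative to Ace, taken within a library as deposited, was 0.188 to 0.259 in WT untreated and 0.157 to 0.325 in cKO untreated kidney. It was 1.41 to 2.32 in WT cisplatin and 0.426 to 0.958 in cKO cisplatin libraries. The 4 groups thus ordered as untreated of either genotype, then cKO cisplatin, then WT cisplatin, with no overlap between the last 2 and the untreated ones. The ratio compares libraries, not the levels of the 2 genes, whose lengths set its size; it was chosen after its values were seen and has no test.

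Agtr1a, the type 1 angiotensin receptor, was 38.03, 33.1 and 35.1 FPKM in WT untreated libraries and 13.96, 25.7, 20.1 and 26.1 in WT cisplatin. cKO libraries held 33.0, 36.5 and 37.8 without drug and 23.0, 34.4, 36.9 and 26.9 after it. WT groups did not overlap and cKO groups did, and library 1 was again the lowest of each cisplatin group. It fell in WT by 0.74 ± 0.20 (adjusted p = 0.0110), and by 0.55 (adjusted p = 0.0142) without library 1. In cKO the log2 fold change was -0.25 ± 0.20 (adjusted p = 0.688). After cisplatin cKO minus WT was 0.50 ± 0.18 (adjusted p = 0.0593), past the threshold in 7 of 22 alternatives, among them the removal of both first libraries (adjusted p = 0.0228).

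Mas1, the receptor of angiotensin-(1-7), was at 1.54, 1.81 and 1.62 FPKM in WT untreated and 0.355, 0.306, 0.548 and 0.862 in WT cisplatin libraries. cKO values were 2.29, 1.35 and 2.15 without drug and 1.19, 0.852, 1.12 and 1.54 after it. The WT groups were apart, and the cKO cisplatin range overlapped both untreated cKO and WT cisplatin. It fell in WT by 0.82 ± 0.16 (adjusted p = 0.00174) on log2(FPKM + 1), and by 1.59 with a pseudocount of 0.1. Among cisplatin kidneys it was higher in cKO, by 0.53 ± 0.15 (adjusted p = 0.0205), a call lost in 5 of 22 alternatives, among them the removal of cKO cisplatin library 4 (adjusted p = 0.0654), of WT cisplatin library 2 (0.0536) or of both first libraries (0.0573). The span of the gene overlaps that of the antisense noncoding RNA Airn. Overlap of their exons was not examined, and the strand setting of the counting is not given in the sources used here. Whether the 2 genes share counted reads is therefore not known. Airn moved with Mas1, at 7.34 to 9.58 FPKM in WT untreated and 1.39 to 2.71 in WT cisplatin libraries. It was 6.31 to 15.9 in cKO untreated and 4.32 to 8.66 in cKO cisplatin libraries.

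Enpep, the aminopeptidase that starts the breakdown of angiotensin II, was 138, 117 and 124 FPKM in WT untreated libraries and 52.6, 65.3, 59.8 and 74.7 in WT cisplatin. cKO values were 134, 124 and 78.6 without drug and 103, 89.5, 76.6 and 75.7 after it. WT groups were well apart; cKO groups overlapped through untreated library 3, at 78.6. The WT mean fell from 126 ± 11.1 to 63.1 ± 9.29, a log2 fold change of -0.999 ± 0.18 (adjusted p = 8.26e-04). In cKO the log2 fold change was -0.35 ± 0.18 (adjusted p = 0.472), and -0.59 without untreated library 3. After cisplatin each cKO library exceeded each WT one, 75.7 at least against 74.7 at most, with a log2 difference of 0.44 ± 0.16 (adjusted p = 0.0591). That difference was 0.27 (adjusted p = 0.235) with both first libraries left out, and its adjusted p was 0.0215 without cKO untreated library 3.

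Mme, neprilysin, which cleaves angiotensins, natriuretic peptides and bradykinin, was 77.0, 63.8 and 84.0 FPKM in WT untreated libraries and 56.9, 51.1, 45.4 and 48.5 in WT cisplatin. cKO libraries held 65.3, 65.4 and 77.6 without drug and 65.2, 63.2, 61.7 and 69.6 after it. The WT groups did not overlap, and the cKO cisplatin values lay in and just under the untreated range. It fell in WT by 0.56 ± 0.11 (adjusted p = 0.00164), and its cKO log2 fold change was -0.09 ± 0.11 (adjusted p = 0.816, 95% interval -0.33 to 0.14). After cisplatin Mme was higher in cKO by 0.36 ± 0.10 (adjusted p = 0.0187), from 50.5 ± 4.89 in WT to 64.9 ± 3.46 FPKM with no overlap. This call was lost without WT cisplatin library 3, WT cisplatin library 4 or cKO cisplatin library 4, with adjusted p of 0.0591, 0.0512 and 0.0562.

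Anpep and Atp6ap2 had the smallest log2 fold changes in WT. Anpep, which also serves as a broad peptidase of the brush border, was 128, 141 and 139 FPKM in WT untreated libraries and 117, 108, 112 and 122 in WT cisplatin, apart by a small gap. Its WT log2 fold change was -0.24 ± 0.11 (adjusted p = 0.105), with a 95% interval of -0.48 to -0.01, and quantile normalization gave an adjusted p of 0.0170. In cKO Anpep was 161, 131 and 129 without drug and 158, 118, 124 and 130 after it, a log2 fold change of -0.08 ± 0.11. Atp6ap2 ranged over 66.3 to 75.5 FPKM in WT untreated, 71.1 to 90.0 in WT cisplatin, 67.8 to 77.2 in cKO untreated and 69.3 to 85.6 in cKO cisplatin libraries. Its log2 fold changes were 0.17 ± 0.10 in WT (adjusted p = 0.229, 95% interval -0.05 to 0.39) and 0.09 ± 0.10 in cKO (adjusted p = 0.802, -0.13 to 0.32).

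Between the genotypes without drug, 0 of the 9 genes were called, with log2 differences (cKO minus WT) from -0.20 ± 0.19 (Enpep) to 0.24 ± 0.45 (Ren1) and each limma adjusted p at 1.00. The background there was 0% of genes called, while 6.26% had groups that did not overlap. After cisplatin 3 of the 9 were called, Ace, Mme and Mas1, each higher in cKO, against a background of 26.9% called, 8.77% higher and 18.1% lower, and 21.2% not overlapping. The median difference of the 9 was 0.44, against -0.11 over all genes. Without the library labelled cKO cisplatin 3 the same 3 genes were called (Ace adjusted p = 0.00551, Mme 0.0309, Mas1 0.0414), and without cKO cisplatin library 4 only Ace was (1 of 9, adjusted p = 0.0131). The share of called genes that were higher in cKO was 32.6%, and 47.3% with median-of-ratios scaling or 48.9% with quantile normalization, under both of which Agtr1a and Enpep were called as well, making 5 (Agtr1a adjusted p = 0.0118 and 0.0106, Enpep 0.0197 and 0.0339).

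In the cKO comparison of cisplatin with no drug, 0 of the 9 genes were called, where 0.0197% of all genes were. Agt, Ace and Mas1 had unadjusted limma p under 0.05, as had 1754 of the 15193 genes tested. The median log2 fold change of the 9 was -0.25 against 0.02 over all genes. The test of the difference between the responses called 0 of the 9 at a background of 4.06% (1.41% higher and 2.65% lower), with Ace (1.04), Enpep (0.65 ± 0.25, adjusted p = 0.153) and Mme (0.46 ± 0.15, adjusted p = 0.105) having the smallest unadjusted p. Without WT cisplatin library 1, Ace (adjusted p = 0.0151) and Mme (adjusted p = 0.0335) passed. Calls over all genes rose as well, from 214 higher and 403 lower to 702 and 1540 of 15193. Ace and Mme each passed in 3 of 22 alternatives, with limma adjusted p reaching 0.192 and 0.246 in others. A call in WT and none in cKO is therefore not by itself a shown difference between them. The comparisons share libraries and are not independent of each other.

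**Figure D3:**
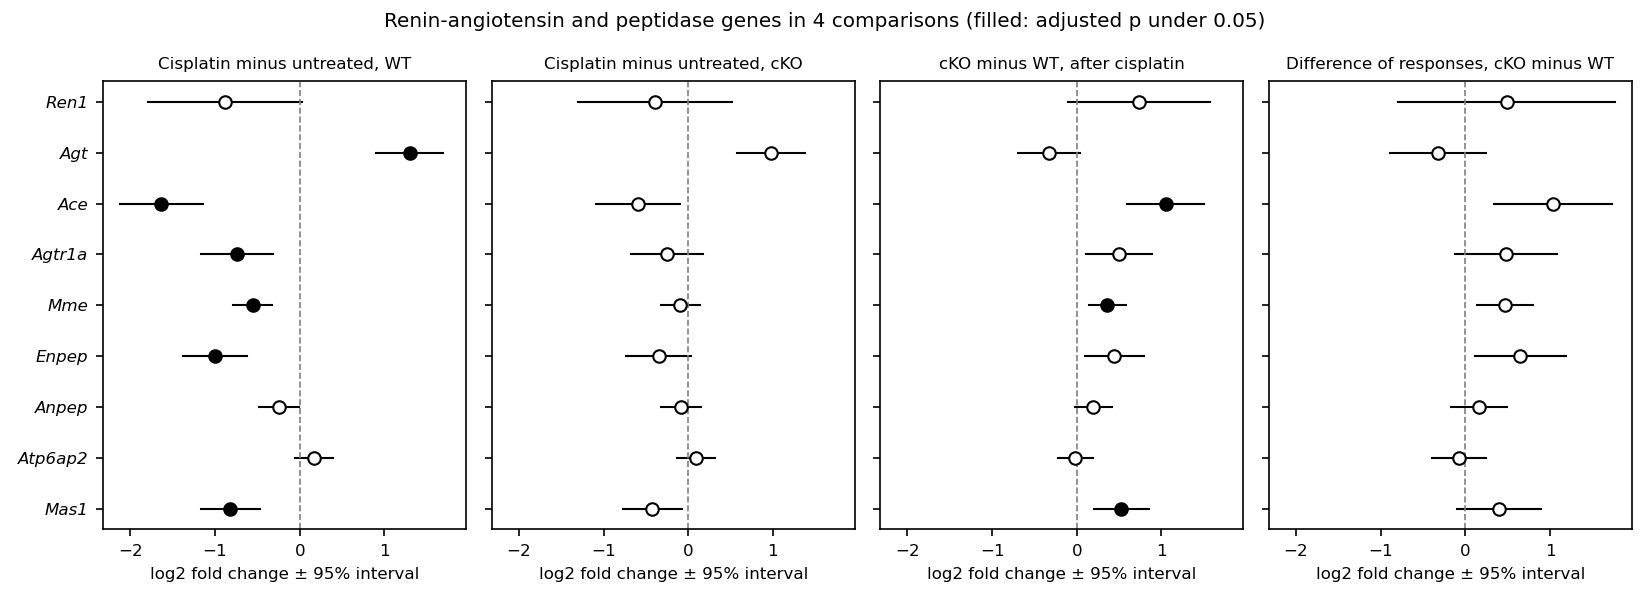
Log2 fold change with its 95% interval (x axis, limma on log2(FPKM + 1)) of the 9 genes (y axis) in 4 comparisons; filled points have an adjusted p under 0.05. Filled points are 6 in WT after cisplatin, 0 in cKO, 3 in cKO against WT after cisplatin and 0 in the difference of responses. Over all genes 34.4%, 0.0197%, 26.9% and 4.06% were called in these comparisons, in that order.

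Bulk kidney RNA cannot tell fewer cells of a type from less RNA per cell, and most of these peptidases belong to the proximal tubule. Of 14 other proximal tubule genes, among them the phosphate transporter gene Slc34a1, 10 fell and 0 rose in WT after cisplatin, with a median log2 fold change of -1.12, and in cKO 0 were called, with a median of -0.14. Their summed level was 5059 to 5216 FPKM in WT untreated, 1910 to 3037 in WT cisplatin, 4938 to 5174 in cKO untreated and 4073 to 5535 in cKO cisplatin libraries. After cisplatin 8 of the 14 were higher in cKO than in WT. Over all genes 12.1% fell and 22.3% rose in WT, and 8.77% were higher in cKO than in WT after cisplatin. Only 0.0197% of all genes were called in cKO against no drug. All 8 tubular injury genes rose in WT (median 5.39) and 0 were called in cKO (median 1.55). With cKO cisplatin library 4 left out 6 rose in cKO, as did 171 of the 15193 genes tested. Macrophage genes moved as well: 5 of 8 tested rose in WT, from 68.4 to 80.6 FPKM in sum without drug to 108 to 359, and 0 were called in cKO. The part of any of these in the results above was not tested.

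**Figure D4:**
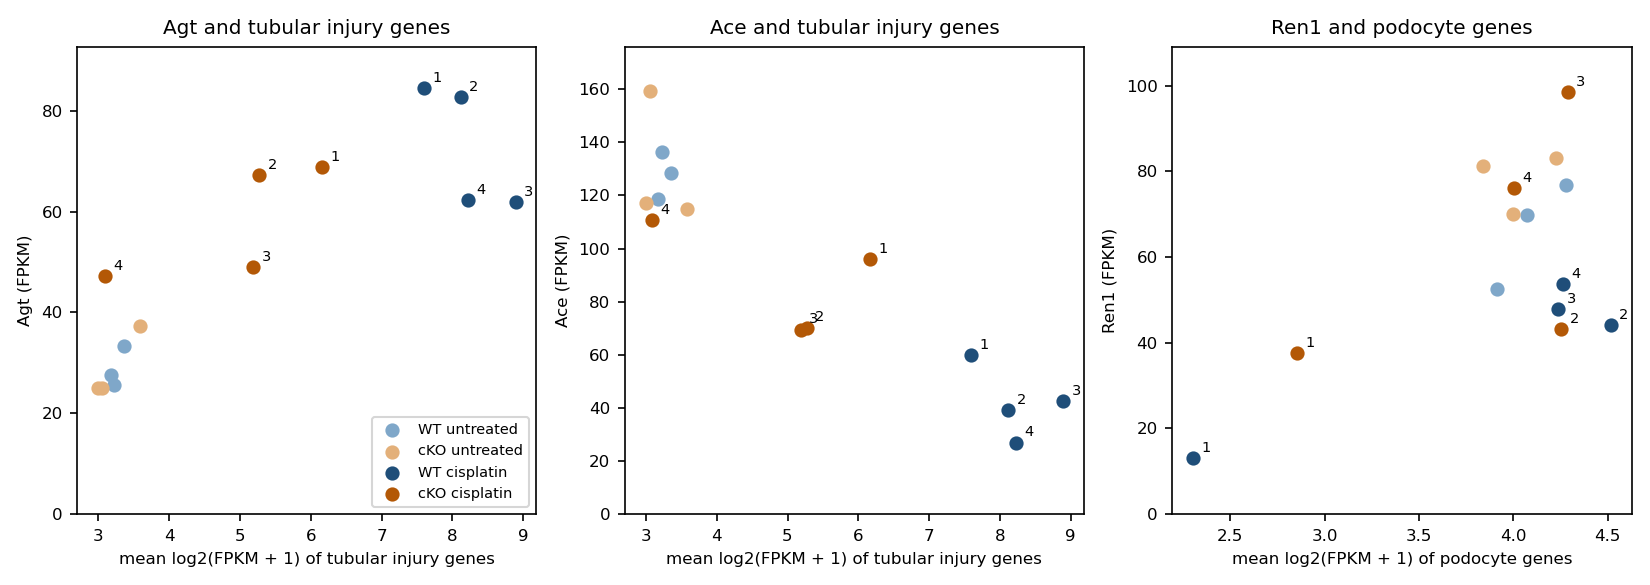
Agt and Ace (FPKM, y axes from 0) against the mean log2(FPKM + 1) of 8 tubular injury genes, and Ren1 against that of 6 podocyte genes; each point is a library, coloured by group, and numbers mark the cisplatin libraries of each group. cKO cisplatin library 4 lies at the untreated injury level (3.09) with Agt at 47.2 and Ace at 111, and the first libraries of both cisplatin groups lie at podocyte values of 2.30 and 2.85.

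Other genes of the angiotensin pathway were called in WT about as often as all genes: 3 of the 9 tested, of 16 listed, against 34.4% of all genes. After cisplatin 1 rose, Thop1 (thimet oligopeptidase, which cleaves angiotensin I; 0.39 ± 0.13, adjusted p = 0.0280), and 2 fell, Klk1 (tissue kallikrein; -0.84 ± 0.24, adjusted p = 0.0148) and Agtrap (a protein that promotes internalization of the type 1 receptor; -0.41 ± 0.10, adjusted p = 0.00550). The median of the 9 tested was 0.0477. In cKO 0 of 9 were called, where 0.0197% of all genes were. Klk1 was 1221 to 1466 FPKM in WT untreated, 532 to 1081 in WT cisplatin and 1618 to 1706 in cKO cisplatin libraries, so that it was higher in cKO after cisplatin by 1.18 ± 0.22 (adjusted p = 0.00211). In that comparison the lysosomal carboxypeptidase gene Ctsa was also higher (0.34 ± 0.09, adjusted p = 0.0131) and the endopeptidase genes Nln (-0.49 ± 0.12, adjusted p = 0.0110) and Prep (-0.40 ± 0.12, adjusted p = 0.0272) were lower. The background there was 26.9% of all genes called. Agtr1b, Agtr2 and the mast cell and neutrophil proteases Cma1, Cpa3, Mcpt4 and Ctsg stayed under the filter on low values, and Mrgprd was listed at 0 in every library. Under the alternatives the WT count went from 0 to 3 higher and from 1 to 3 lower. Without WT cisplatin library 1 it was 3 higher and 2 lower. The count over all 15193 genes then went from 3392 higher and 1832 lower to 4447 and 2005.

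The other brush-border peptidases, 9 genes of which 8 were tested, had 5 that fell and 0 that rose in WT, with a median of -0.57. Of all genes 12.1% fell and 22.3% rose there. Mep1b, the beta subunit of the metalloprotease meprin, went from 110 ± 14.4 to 32.5 ± 14.5 FPKM (log2 fold change -1.84 ± 0.31, adjusted p = 6.12e-04). Xpnpep2, membrane aminopeptidase P, which cleaves bradykinin, and Dpep1, a dipeptidase, had log2 fold changes of -1.63 ± 0.24 and -1.62 ± 0.27. The other 2 were Mep1a, the meprin alpha subunit (-0.49 ± 0.17), and Ggt1, the glutathione-cleaving gamma-glutamyltransferase (-0.66 ± 0.24, adjusted p = 0.0495). Dpp4, dipeptidyl peptidase 4, had -0.06 ± 0.14 in WT, at 54.4 to 61.6 FPKM without drug and 46.0 to 64.7 after it. In cKO 0 of 8 were called, where 0.0197% of all genes were. After cisplatin 4 (Mep1b, Dpep1, Xpnpep2 and Mep1a) were higher in cKO than in WT, against 8.77% of all genes. Across alternatives 3 to 5 fell in WT. The response of Xpnpep2 differed between the genotypes by 1.43 ± 0.34 (limma adjusted p = 0.0374), where 4.06% of all genes were called. Without cKO cisplatin library 4 the list had 0 such calls, with 127 higher and 204 lower over all genes. Without WT cisplatin library 1 the list had 4, with 702 higher and 1540 lower over all genes.

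Of 12 genes of aldosterone and vasoactive signalling 8 were tested. In WT 1 rose and 1 fell, where 22.3% of all genes rose and 12.1% fell. After cisplatin 1 was higher and 2 were lower in cKO than in WT. Over all genes 8.77% were higher and 18.1% lower there. In WT after cisplatin the bradykinin B2 receptor gene Bdkrb2 rose, from 0.101 to 0.330 FPKM up to 1.45 to 1.997 (1.21 ± 0.16, adjusted p = 1.35e-04), and the mineralocorticoid receptor gene Nr3c2 fell, from 7.30 ± 0.491 to 4.87 ± 0.659 (-0.50 ± 0.12, adjusted p = 0.00526). In cKO 0 of 8 were called, where 0.0197% of all genes were. After cisplatin Hsd11b2, the enzyme that inactivates glucocorticoid beside that receptor, was higher in cKO (0.51 ± 0.13, adjusted p = 0.0120), and Bdkrb2 (-0.74 ± 0.15) and the endothelin A receptor gene Ednra (-0.56 ± 0.19, adjusted p = 0.0386) were lower. Leaving out WT cisplatin library 1 raised the WT count of this list to 3 higher and 1 lower. Over all 15193 genes it raised the count from 3392 higher and 1832 lower to 4447 and 2005. Aldosterone synthase, Cyp11b2, was listed at 0 in every library, and the 6 adrenal markers summed to 1.30 to 2.26 FPKM over all libraries.

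**Figure D5:**
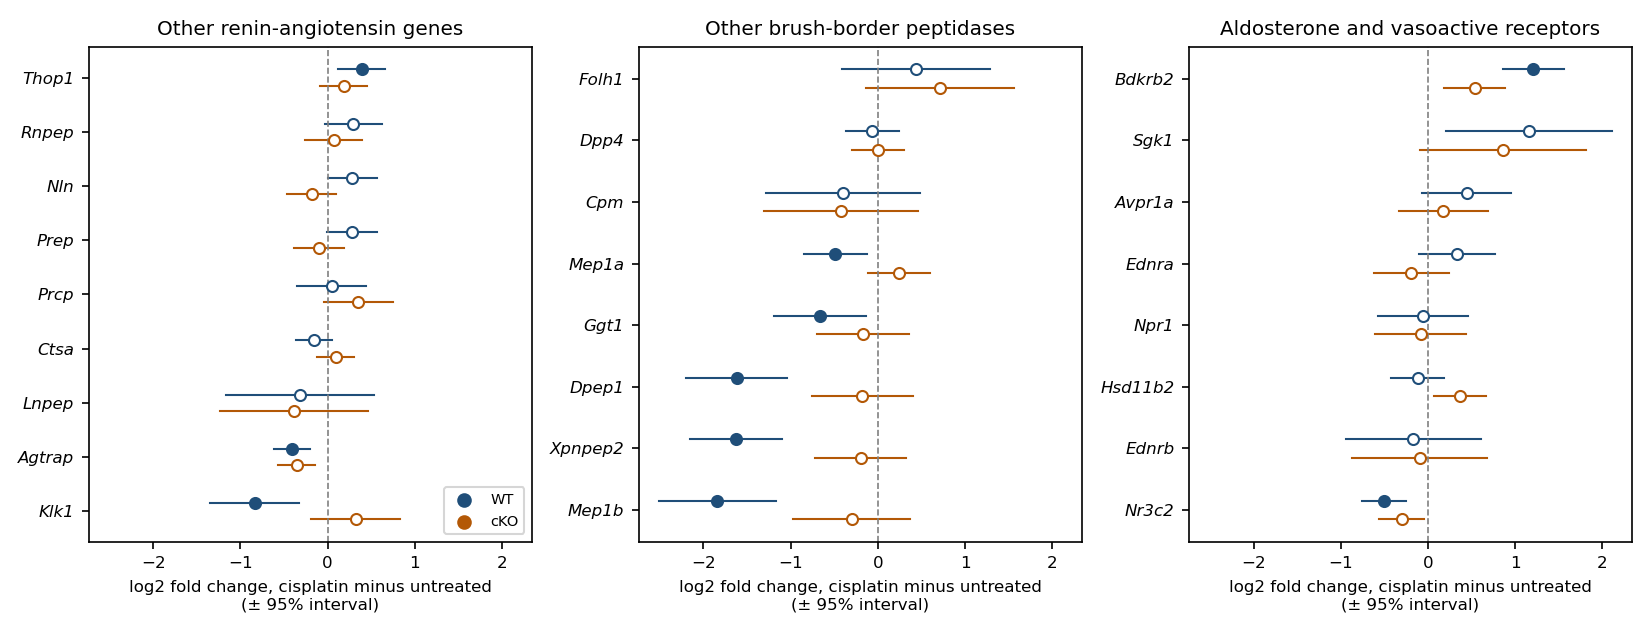
Log2 fold change with 95% interval (x axis) after cisplatin in WT (blue) and cKO (orange) for the tested genes of 3 related lists (y axis); filled points have an adjusted p under 0.05. Filled points are 3, 5 and 2 in WT and 0 in cKO. Over all genes 34.4% were called in WT and 0.0197% in cKO.

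The genes whose patterns over the 14 libraries were most like each member were found by the root mean square difference of centred log2(FPKM + 1) among 12425 candidate genes, as a description. Ace was nearest to Acss2 (0.176), an acetyl-CoA synthetase gene, and then to Csad and Fancd2os, while its own spread about its mean was 0.736. Agt, with a spread of 0.618, was nearest to Rps27l (0.219), Rps19 and Gstm5. Enpep was nearest to Brap (0.162), Chdh and Erc2, Mme to Osbpl1a (0.0774), Tmem220 and Idh3b, and Agtr1a to Ildr2 (0.117), Trpm7 and Oxgr1. Ren1, with a spread of 0.683, had the largest nearest distance, to Igkv4-72 (0.322), then Vegfd and Gimap4. The distances are not scaled to each gene's spread. Mas1 was nearest to Fam217a (0.159), Zfp101 and Ramp3. Anpep, with a spread of 0.162, was nearest to Clcn2 (0.0780), Ybx1 and Lysmd4. Atp6ap2, with a spread of 0.129, was nearest to Rnf13 (0.0670), Ssbp2 and Ppp1r2. The 9 genes were in none of these sets of 3, and the libraries share the depth and injury differences given above.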

How the data were processed

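The values are FPKM as deposited by the authors, 1 per gene and library, in 1 table for 14 libraries of Trizol-extracted kidney RNA made with Illumina TruSeq kits, per the labels' protocols. The submitters' processing notes name the aligner HISAT2 (2.0.5) and the build mm10; the read counter, annotation and strand setting are not given in the sources used here. The table held 49584 genes, 1 emptied line and 0 columns without a sample, and 0 pairs of libraries were identical. The whole-read steps of the FPKM values gave 36.7 to 77.0 M assigned reads per library. FPKM is not a count, so no count model was run. GENCODE M21 holds 99.5% of the IDs, 91.5% with unchanged coordinates.

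Groups came from the labels, with replicates numbered in record order. The filter on low values asked for a mean FPKM of 0.5 or more over the 14 libraries (15193 genes kept, 34391 removed; 9 of the 9 members passed). limma 3.58.1 in R 4.3.3, with a mean-variance trend, was fitted to log2(FPKM + 1) over the 14 libraries with 1 mean per group, and 5 two-sided comparisons were adjusted by Benjamini-Hochberg and called at an adjusted p under 0.05. The script was tested on simulated data. The pseudocount shrinks the fold changes of low genes. In all, 22 alternatives were run: the pseudocount, filters, scalings, array weights, a fit of only the groups compared and left-out libraries.

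Named genes were the 9 members, up to 6 called genes of each related list, Ripk4, the highest or zero markers and the 3 genes most like each member. Members, lists and rules were chosen with earlier results of these data known. A gene of the related lists is not reported here and was left out of their counts.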

Additional observations from a re-analysis of the deposited data

Results flagged for a closer look

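Sets of 4 values, each 1 gene in 1 cisplatin group, were examined for a library far from the other 3. Of 70 such sets 4 passed, where chance gives about 1 in 20, so the count is near that of chance. The sets share libraries and are not independent. In WT cisplatin, Agtrap was 54.7 FPKM in library 4 against 64.9 to 66.7 in the others. Bdkrb2 was 1.45 FPKM in library 1 against 1.92 to 1.997, and Ednra was 0.536 in library 1 against 1.73 to 1.85, the library that was also low in podocyte and endothelial genes. Folh1, a brush-border carboxypeptidase gene, was 117 FPKM in library 2 against 53.2 to 63.8.

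The cisplatin response of Xpnpep2 differed between the genotypes by 1.43 (limma interaction, adjusted p = 0.0374). It was 5.20 to 7.62 FPKM in WT untreated and 0.593 to 2.17 in WT cisplatin libraries, and 5.51 to 6.10 and 3.33 to 6.58 in the corresponding cKO libraries.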

How the results depend on the processing

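No paired analysis was possible because the labels give no replicate numbers shared between groups. Over the 22 alternatives the 6 WT calls after cisplatin and the higher Ace of cKO after cisplatin kept their direction and call. Counts of all genes moved more, and the causes were not tested. In WT after cisplatin, array weights called 5264 genes as higher instead of 3392. In cKO after cisplatin they called 556 higher and 318 lower instead of 0 and 3, and among the 9 genes 1 higher (Agt) and 1 lower (Ace). Lower genes there numbered 5 with median-of-ratios scaling, 12 with no filter, 0 with only the groups compared and 1 with quantile normalization, and 1 gene was higher with both first cisplatin libraries left out. For cKO against WT after cisplatin, a fit of only the groups compared called 714 higher and 1410 lower instead of 1333 and 2755, and array weights called 4255 lower. Of the 9 genes 5 were higher with median-of-ratios scaling or quantile normalization, instead of 3.

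For the difference of the responses, 214 genes were higher and 403 lower. Array weights gave 1163 and 2266, no filter 88 and 167, and both first cisplatin libraries left out 709 and 1508; quantile normalization gave 326 higher. Array weights and the removal of both first libraries each called 2 of the 9 genes (Ace and Mme), instead of 0.

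Leaving out each library in turn, the results that moved had these ranges. In cKO after cisplatin 0 to 171 genes were higher and 0 to 115 lower, the highest of each without cKO cisplatin library 4, and 0 to 1 of the 9 was higher (Agt, without cKO untreated library 3 or cKO cisplatin library 4). For cKO against WT without drug 0 to 1 gene was higher and 0 to 1 lower. After cisplatin 931 to 1770 were higher and 1870 to 4426 lower in cKO, the latter highest without WT cisplatin library 1, and 1 to 4 of the 9 higher, the lowest count being that without cKO cisplatin library 4. The difference of responses had 36 to 702 higher and 49 to 1540 lower, lowest without WT untreated library 2 and highest without WT cisplatin library 1, which also gave 2 of the 9 (range 0 to 2). Among log2 values that changed sign, cKO against WT without drug ranged over -0.19 to 0.0994 for Agt, -0.14 to 0.0959 for Ace, -0.0338 to 0.0681 for Agtr1a, -0.35 to 0.0321 for Enpep and -0.0683 to 0.0933 for Anpep. Atp6ap2 in cKO against WT after cisplatin ranged over -0.0663 to 0.0454, and Anpep in cKO after cisplatin over -0.17 to 0.0215.

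Directions turned under other settings for 2 genes with differences near 0. Agt in cKO against WT without drug was 0.0276 with median-of-ratios scaling and 0.0133 with quantile normalization. Atp6ap2 in cKO against WT after cisplatin was 0.109 with median-of-ratios scaling, 0.0531 with quantile normalization, 0.0237 with array weights and 0.0189 with both first libraries left out, and its difference of responses was 0.0160 with median-of-ratios scaling. Depth limits Mas1 most, with 16 reads in 1 library.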
